A study of Homo sapiens with 3 samples.

Results

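The 10 mRNAs described here encode the cytosolic translation elongation factors and some of their companions in protein synthesis. They are EEF1A1 (NM_001402), EEF1A2 (NM_001958), EEF1B2 (NM_001959), EEF1D (NM_001960), EEF1G (NM_001404), EEF2 (NM_001961), TPT1 (NM_003295), EIF4A1 (NM_001416), EIF4B (NM_001417) and PABPC1 (NM_002568). They were picked out by RefSeq identifier from the 25443 transcripts with a value in at least 1 sample, and 9 of the 10 had a value. NM_001960 of EEF1D had none in the lists used here. The members were chosen by name with the RPKM values of all 3 samples already known, so every level and difference below is a description, with no test.

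The cells were HEK293, a human embryonic kidney line that the study's methods call HEK293T, grown in DMEM with L-glutamine and fetal bovine serum. The BDE-209 sample received 1 µM of the flame retardant decabromodiphenyl ether together with 1 mM DMSO as its solvent for 48 h, the DMSO sample received 1 mM DMSO for 48 h, and the negative control was grown alongside with neither. The treatment label of the negative control could also be read as BDE-209 without DMSO, and it was taken as untreated from its title and the protocol. Each condition was 1 sample, so no difference has a replicate check and spread between cultures is unknown. Levels are RPKM, that is reads per kilobase of transcript scaled to the sample's mapped reads, computed by the authors from polyA-enriched RNA, and they measure the amount of mRNA and not its translation.

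The read totals by which RPKM had been scaled, recovered from the steps of low values, lay between 4676793 in the BDE-209 sample and 4843624 in the negative control. In each sample the total was below both the mapped and the uniquely mapped reads that the paper gives. Intervals below are 95% intervals for counting error only, from the smallest whole numbers of reads that fit the RPKM values. Markers of this line were present, with VIM (vimentin) between 261 and 299.1 RPKM, NEFM (a neurofilament subunit) between 99.1 and 105.8 and KRT18 (keratin) between 80.7 and 95.6, while LHX1 reached only 1.43 RPKM and PAX2 had no value in the lists used here. Of the markers of other cell types, ALB (hepatocytes) stayed at or below 0.0944 RPKM and PECAM1 (endothelium) at or below 0.438, and PTPRC, CD3E and HBB had no value. In bulk RNA, fewer cells with a transcript and less of it per cell cannot be told apart.

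During elongation, eEF1A in its GTP form carries aminoacyl-tRNA to the ribosome, the eEF1B complex recharges eEF1A with GTP, and eEF2 moves the ribosome along the mRNA by a codon. Many mRNAs of this machinery, like those of the ribosomal proteins, belong to the TOP class. Such an mRNA begins with a C that is followed by an unbroken run of pyrimidines, and its translation is controlled through mTORC1 and the RNA-binding protein LARP1.

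The starts of the members' transcripts are shown because this sequence defines the TOP class. The members were chosen partly as TOP mRNAs, so a run at their starts is a description and not independent of that choice. RefSeq promoter entries of build GRCh38.p14 existed for 7 of the 10 members, with 2 entries for EEF1B2. Each was found once in GRCh37, at the position given here. The letters are 30 bases on the strand of the gene, 5′ to 3′, with 15 before the annotated start and 15 from the start on. A run is a C followed by at least 4 pyrimidines (C or T) that begins within 10 bases of the start. Capitals mark only the run nearest the start, and other such stretches are left in small letters.
EEF1A1, chr6:74230741-74230770, minus strand: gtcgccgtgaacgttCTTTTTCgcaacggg
EEF2, chr19:3985447-3985476, minus strand: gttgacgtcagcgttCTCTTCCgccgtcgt
TPT1, chr13:45915304-45915333, minus strand: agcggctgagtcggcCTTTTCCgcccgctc
EIF4B, chr12:53400225-53400254, plus strand: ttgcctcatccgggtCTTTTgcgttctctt
EEF1B2, downstream entry, chr2:207024604-207024633, plus strand: ccggtctcttcgggtCCTTTTTCCTCTCTT
EEF1B2, upstream entry, chr2:207024318-207024347, plus strand: gccggaagtggccccagcctcgaggccggg
EEF1G, chr11:62341349-62341378, minus strand: tctcccgggcggcttactttgcggcagcgc
EIF4A1, chr17:7476128-7476157, plus strand: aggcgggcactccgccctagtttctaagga

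In EEF1A1, EEF2, TPT1, EIF4B and the downstream entry of EEF1B2, the run began exactly at the annotated start. The run was 7 bases long in EEF1A1, EEF2 and TPT1, 5 in EIF4B and 16 in EEF1B2, where it goes on past the last letter shown. Of all 35116 promoter entries, 4.07% had such a run beginning exactly at the start and 33.5% had it within 10 bases, read on the strand of the gene only. The entries of EEF1G and EIF4A1 and the upstream entry of EEF1B2 did not hold these letters within 10 bases.

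The members fell into a high and a low tier, and the order of the tiers was the same in all 3 samples. EEF1A1, EEF1G, EEF2, TPT1, EIF4A1, PABPC1 and EIF4B lay between 269.4 and 2184.5 RPKM, and EEF1A2 and NM_001959 of EEF1B2 between 21.2 and 34.0 RPKM. EEF1A1 ranked 10 among all listed transcripts of each sample by RPKM and EEF1G ranked 14. EIF4B, the lowest of the high tier, was 7.93 times EEF1A2 in the negative control.

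**Figure D1:**
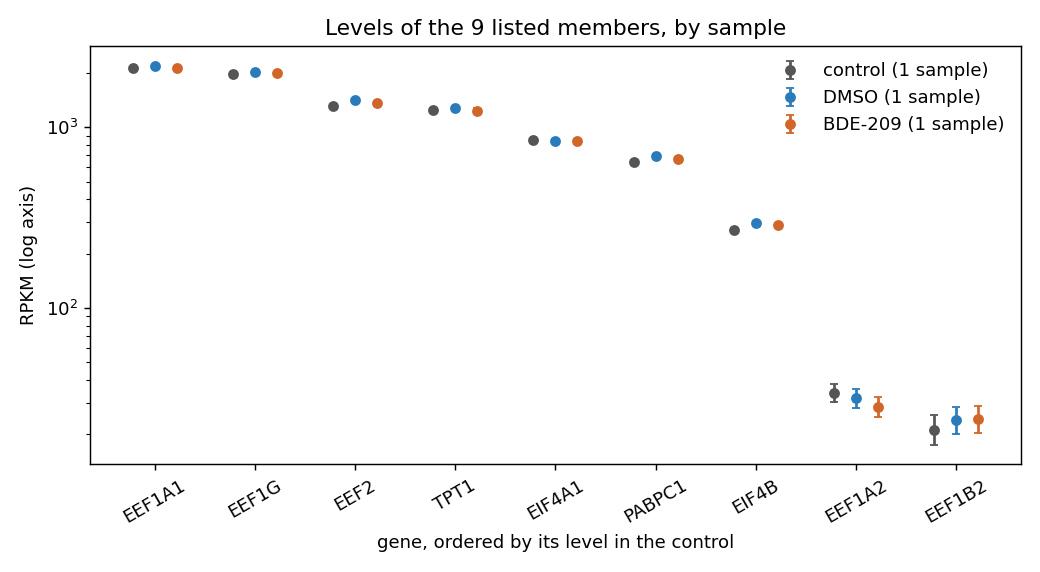
RPKM of the 9 members with a value (log axis), in 1 sample each of the negative control, DMSO and BDE-209, with 95% exact Poisson intervals of the recovered reads, most of them smaller than the points. EEF1A1 and EEF1G lie highest at 1966.7 to 2184.5 RPKM, while EEF1A2 and EEF1B2 lie at 21.2 to 34.0.

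EEF1A1, the ubiquitous form of eEF1A, lies on chromosome 6 (74199031 to 74235310 in GRCh37, minus strand). Its level was 2124.8 RPKM (95% exact Poisson interval 2098 to 2151) in the negative control, 2184.5 (2158 to 2212) with DMSO and 2129.2 (2102 to 2156) with BDE-209. The DMSO sample was highest, by 2.81% over the negative control, and the other 2 samples had overlapping intervals.

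EEF1A2, the eEF1A paralog known from neurons and muscle, lies on chromosome 20 (62119366 to 62130592, minus strand). It had 34.0 RPKM (303 reads, interval 30.26 to 38.03) in the negative control, 31.7 (279 reads, 28.1 to 35.6) with DMSO and 28.3 (244 reads, 24.9 to 32.1) with BDE-209. All 3 intervals overlapped. EEF1A1 was 62.5 times EEF1A2 in the negative control (95% Clopper-Pearson interval 55.8 to 70.3), 68.9 times with DMSO (61.3 to 77.8) and 75.1 times with BDE-209 (66.2 to 85.6). These ratios do not depend on how the samples are scaled, and their intervals overlap.

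EEF1G, the gamma subunit of eEF1B, is encoded on chromosome 11 (62327068 to 62341558, minus strand). It was at 1966.7 RPKM (1935 to 1999) in the negative control, 2022.2 (1990 to 2055) with DMSO and 1983.8 (1952 to 2016) with BDE-209. EEF1G and EEF1A1 kept nearly the same ratio, 0.926, 0.926 and 0.932 in the negative control, DMSO and BDE-209.

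EEF1B2, the subunit of eEF1B that catalyses nucleotide exchange, lies on chromosome 2 (207024309 to 207027652, plus strand). NM_001959 had 21.2 RPKM (116 reads, interval 17.5 to 25.5) in the negative control, 23.9 (129 reads, 19.97 to 28.42) with DMSO and 24.3 (128 reads, 20.2 to 28.9) with BDE-209. The other 2 listed transcripts of the gene were NM_001037663, at 17.7, 23.5 and 22.8 RPKM in that order, and NM_021121, at 2.42, 2.69 and 1.25 RPKM with 10, 11 and 5 reads. Both NM_001959 and NM_001037663 were lowest in the negative control, with overlapping intervals in all 3 samples. EEF1G stood 92.6, 84.6 and 81.8 times above NM_001959 in the negative control, DMSO and BDE-209, and 47.6, 40.4 and 41.0 times above the sum of the 3 EEF1B2 transcripts. The part that the counting of reads shared by transcripts has in this gap was not tested.

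EEF1D, the delta subunit with exchange activity of its own, lies on chromosome 8 (144661867 to 144681711, minus strand). In place of NM_001960, 6 other transcripts of the gene had values, which added up to 15.1 RPKM in the negative control, 14.9 with DMSO and 16.3 with BDE-209. NM_001130053 and NM_032378 made up most of this, at 5.69 to 6.36 RPKM in every sample. NM_001130057 had 12, 18 and 25 reads in the negative control, DMSO and BDE-209, and its log2 ratio of BDE-209 to the negative control, with nothing added to RPKM, was 1.11 (95% Clopper-Pearson interval 0.063 to 2.24). It is singled out after its values were seen.

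EEF2, the translocase, lies on chromosome 19 (3976054 to 3985461, minus strand). It was at 1314.8 RPKM (1295 to 1335) in the negative control, 1414.8 (1394 to 1436) with DMSO and 1354.2 (1334 to 1375) with BDE-209. DMSO was 7.6% above the negative control with intervals that did not overlap, and BDE-209 lay between them. Relative to EEF1A1 within the sample, EEF2 was 0.619 (0.607 to 0.631) in the negative control, 0.648 (0.635 to 0.660) with DMSO and 0.636 (0.624 to 0.649) with BDE-209.

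TPT1 encodes TCTP, an abundant protein with several reported partners that include eEF1A, on chromosome 13 (45907606 to 45915419, minus strand). Its levels were 1246.5 RPKM (1212 to 1281) in the negative control, 1273.9 (1239 to 1309) with DMSO and 1234.4 (1200 to 1270) with BDE-209. All 3 intervals overlapped, and the span from lowest to highest was 3.19%.

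EIF4A1, the RNA helicase of the cap-binding complex, is encoded on chromosome 17 (7476142 to 7482324, plus strand), and EIF4B, which stimulates that helicase, on chromosome 12 (53400066 to 53435999, plus strand). EIF4A1 had 850.0 RPKM (828.1 to 872.4) in the negative control, 843.3 (821.3 to 865.7) with DMSO and 842.8 (820.5 to 865.4) with BDE-209, the narrowest span of the members at 0.86%. EIF4B had 269.4 RPKM (262.2 to 276.8), 295.2 (287.6 to 303.0) and 287.4 (279.8 to 295.1) in the same order. The negative control of EIF4B lay below the other 2 samples with no overlap of the intervals. The ratio of EIF4A1 to EIF4B, chosen after the values were seen, was 3.16 (3.04 to 3.28) in the negative control, 2.86 (2.75 to 2.96) with DMSO and 2.93 (2.82 to 3.05) with BDE-209.

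PABPC1, the cytoplasmic poly(A)-binding protein, lies on chromosome 8 (101698044 to 101735037, minus strand). It was at 641.4 RPKM (628.1 to 654.8) in the negative control, 695.4 (681.5 to 709.5) with DMSO and 668.1 (654.4 to 682.1) with BDE-209. The DMSO sample was again highest, 8.42% above the negative control without overlap. The ratio of PABPC1 to EIF4A1 within a sample, also chosen after the values were seen, was 0.755 (0.730 to 0.780) in the negative control, 0.825 (0.798 to 0.853) with DMSO and 0.793 (0.767 to 0.820) with BDE-209.

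Neighbours in the order of levels had separate intervals in every sample, except EEF1A2 and EEF1B2 in the DMSO and BDE-209 samples. EEF2 and TPT1, neighbours in that order, differed by a ratio of only 1.05 in the negative control and 1.11 with DMSO.

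The comparison of DMSO with the negative control addresses the solvent. Differences between samples are log2 ratios of RPKM with 0.5 added, which understates those of low transcripts, and the intervals beside them are of the ratio with nothing added. Of the 7 members at a mean of at least 100 RPKM, 6 were higher in the DMSO sample, where 45.2% of the 795 transcripts at that level were. EIF4B had the largest log2 ratio at 0.13 (95% Clopper-Pearson interval 0.078 to 0.19), followed by PABPC1 at 0.12 (0.075 to 0.16) and EEF2 at 0.11 (0.075 to 0.14). EEF1A1 and EEF1G had ratios of 0.040 each (0.015 to 0.065 and 0.0073 to 0.073), TPT1 0.031 (-0.025 to 0.088) and EIF4A1 -0.011 (-0.065 to 0.042). The intervals of EEF1A2 (log2 ratio -0.099, -0.34 to 0.14) and EEF1B2 (0.17, -0.20 to 0.55) were too wide to give a direction.

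The median of the 9 members was 0.040, against 0.0054 for the 15573 transcripts at a mean of at least 1 RPKM and -0.0086 for the 795 at a mean of at least 100. No member was 1.2-fold or more apart in either direction, where 10.2% of the 15573 transcripts were higher and 10.8% lower by that much, and 1.03% were apart by at least 2-fold. With its listed transcripts summed, EEF1B2 had a log2 ratio of 0.275 and was more than 1.2-fold higher. Among the 795 transcripts at a mean of at least 100 RPKM, only 0.503% were at least 1.2-fold higher and 1.13% lower. The counting interval lay above 0 in 5 of the 7 members at this level and below 0 in none, where it lay above 0 in 11.9% of the 795 and below in 12.3%. More reads narrow such an interval, so these shares depend on abundance as well. The 7 members ranked between 10 and 223 by RPKM in the samples, while the 795 reach down to a mean of 100 RPKM. Between the 5th and the 95th percentile, the 795 ranged from -0.15 to 0.13, and EIF4B stood at the percentile 95.5, PABPC1 at 93.3 and EEF2 at 91.6.

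The comparison of BDE-209 with DMSO holds the solvent the same. All 7 abundant members were lower in the BDE-209 sample, by small amounts. EEF2 had a log2 ratio of -0.063 (95% Clopper-Pearson interval -0.094 to -0.032), PABPC1 -0.058 (-0.099 to -0.016) and EEF1A1 -0.037 (-0.063 to -0.011). The intervals of TPT1 (-0.045, -0.10 to 0.012), EIF4B (-0.039, -0.093 to 0.015), EEF1G (-0.028, -0.061 to 0.0054) and EIF4A1 (-0.00086, -0.055 to 0.053) reached 0. So did those of EEF1A2 (-0.16, -0.42 to 0.092) and EEF1B2 (0.020, -0.34 to 0.39), whose ratio was -0.051 with its transcripts summed. With samples scaled to the sum of RPKM, EIF4A1 came out on the other side of 0 in this comparison and in that of DMSO with the negative control.

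The median of the 9 members was -0.039, against 0.00036 for the 15573 transcripts and -0.015 for the 795 abundant ones, of which 41.9% were above 0. No member passed 1.2-fold, where 9.55% of the 15573 were higher and 9.74% lower, and 1.1% passed 2-fold. Of the 795, 0.503% were at least 1.2-fold higher and 0.126% lower. On RPKM as deposited, the counting interval lay below 0 in 3 of the 7 abundant members and above 0 in none, against 10.3% and 5.41% of the 795. These shares too depend on the number of reads. With samples scaled to the sum of RPKM, the ratio of EEF1A1 was -0.024, which brings its interval to 0. The shares of the 795 were not counted again with that scaling. The members stood between the percentiles 23.5 and 57.7 of those transcripts. The DMSO sample enters this comparison and the one before, so the higher and the lower ratios share its values.

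**Figure D2:**
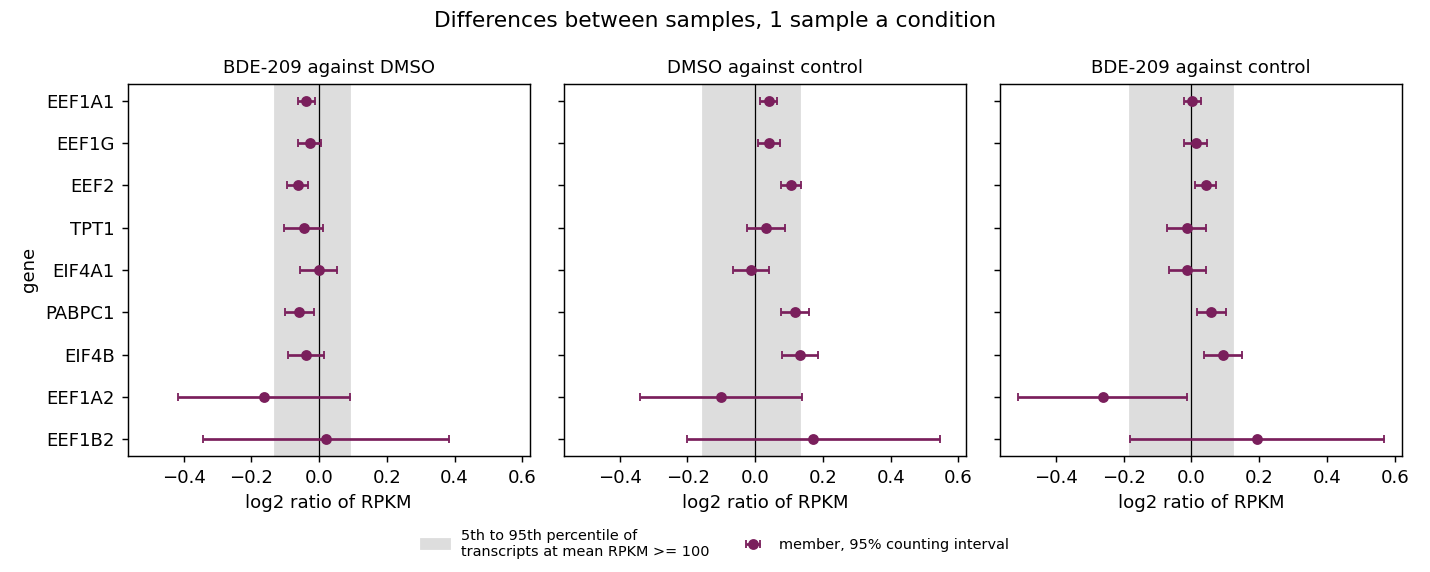
Log2 ratio of RPKM (nothing added) of the 9 members for each pair of samples, with 95% Clopper-Pearson counting intervals, and in grey the range from the 5th to the 95th percentile of the 795 transcripts at a mean of at least 100 RPKM. The 7 abundant members lie at or left of 0 for BDE-209 against DMSO, and PABPC1, EEF2 and EIF4B near the right edge of the grey range for DMSO against the negative control.

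For BDE-209 with its solvent against the negative control, 5 of the 7 abundant members were higher and 2 lower, where 35.8% of the 795 transcripts were higher. With samples scaled to the sum of RPKM, 7 were higher and 0 lower. EIF4B had a log2 ratio of 0.093 (95% Clopper-Pearson interval 0.038 to 0.15), PABPC1 0.059 (0.017 to 0.10) and EEF2 0.043 (0.011 to 0.074). EEF1A1 was nearly level at 0.0030 (-0.023 to 0.029), as were EEF1G at 0.013 (-0.021 to 0.046), EIF4A1 at -0.012 (-0.066 to 0.041) and TPT1 at -0.014 (-0.071 to 0.043). The sign of EEF1A1 changed with a median-of-ratios size factor, and those of TPT1 and EIF4A1 with the sum of RPKM. EEF1A2 had the lowest log2 ratio of the members in this comparison at -0.26, with an interval from -0.51 to -0.014, and EEF1B2 had 0.19 (-0.18 to 0.57).

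The median of the 9 members was 0.013, against 0.0036 for the 15573 transcripts and -0.027 for the 795. The members' median was 0.038 with samples scaled to the sum of RPKM and 0.0051 with the size factor. Again 0 members passed 1.2-fold, where 10.5% of the 15573 were higher and 10.8% lower, and 0.938% passed 2-fold. EEF1A2 was close to that fold, and with the size factor its log2 ratio of -0.265 passed it. Among the 795, 0.629% were at least 1.2-fold higher and 1.64% lower. On RPKM as deposited, the interval lay above 0 in 3 of the 7 abundant members and below 0 in none. The shares were 10.1% and 18.5% of the 795, and they again depend on the number of reads. With the sum of RPKM, the ratios of EEF1A1 and EEF1G were 0.028 and 0.038, which moves their intervals above 0 as well. The shares of the 795 were not counted again with that scaling. The negative control is shared with the comparison of DMSO, and the BDE-209 sample with that of BDE-209 and DMSO.

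Seen over all 3 samples, 6 of the 7 abundant members were highest with DMSO, where 32.7% of the 795 abundant transcripts were, and 5 of the 7 were lowest in the negative control, where 26.9% were. The exception to the former was EIF4A1, which differed by less than its counting interval between any pair of samples. EEF1A1 and EEF1G differed by less than theirs between BDE-209 and the negative control, and EEF1G, TPT1 and EIF4B between BDE-209 and DMSO. With the size factor, the log2 ratio of EEF1A1 for BDE-209 against the negative control was -0.0044, so it was lowest with BDE-209. Likeness of pattern was measured as the Euclidean distance between centred log2 values over the 3 samples, for 788 other transcripts at a mean of at least 100 RPKM. Among the 5 transcripts nearest to EEF1A1 were RPL5 (distance 0.0018), ATP5MC1 (0.0021), RPS6 (0.0029) and the non-coding transcript NR_024058 of YWHAE (0.0041). Of the members, EEF1G (0.0077) and TPT1 (0.012) were nearest to EEF1A1, with 1.52% and 2.79% of the 788 closer, and EIF4B was farthest at 0.074 with 52.8% closer. Distances up to that of TPT1 are smaller than the width of EEF1A1's own counting interval, 0.015 to 0.065 for DMSO against the negative control. The order among these nearest transcripts is therefore not resolved beyond counting error.

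EEF1B2 and EEF1D, whose levels were low, were also the members with several RefSeq transcripts listed for the gene. Genes with 1 listed coding transcript numbered 10228, and their summed RPKM, as the mean of the samples, had a median of 6.82. For 3569 genes with 2 listed transcripts the median was 12.6, and for 1404 genes with 3 or more it was 1.90. At least 500 RPKM were reached by 74 genes (0.724%) with 1 transcript, 36 (1.01%) with 2 and 1 (0.0712%) with 3 or more. EEF1B2 and EEF1D are in the last class, with sums of 41.3 to 50.1 and 14.9 to 16.3 RPKM that lay above its median, and the 8 other member genes had a single listed transcript each. How reads shared by isoforms were counted is not given in the sources used here, and the part of it in these levels was not tested.

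**Figure D3:**
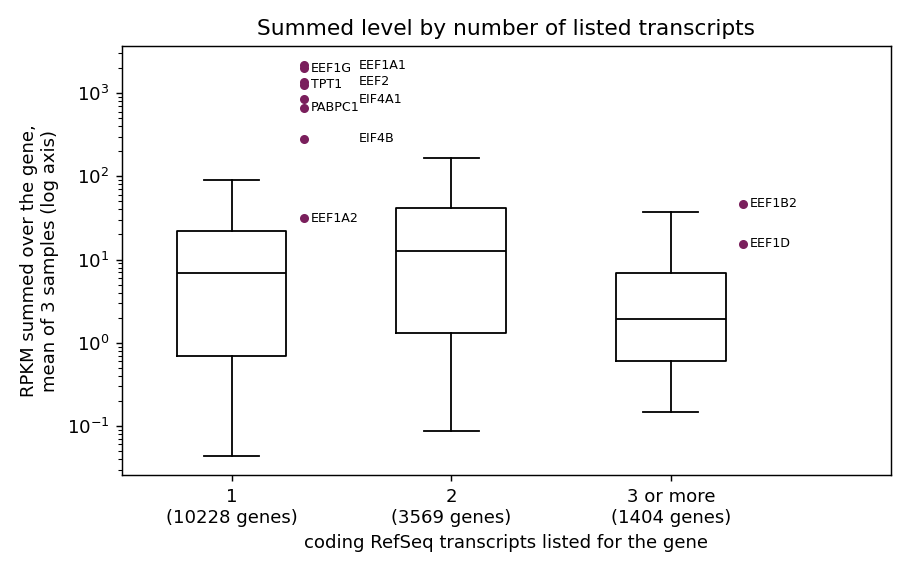
RPKM summed over each gene, as the mean of the 3 samples (log axis), for genes with 1, 2, or 3 or more listed coding RefSeq transcripts; boxes show quartiles, whiskers the 5th and 95th percentiles, and named points the member genes. EEF1B2 and EEF1D sit in the class with the lowest median, 1.90 RPKM, and the other 8 genes in the class with 1 transcript.

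The authors kept uniquely mapped reads only, with mismatches allowed, and processed pseudogenes of these genes are common. The RefSeq gene table lists 50 pseudogenes named after EEF1A1, 14 after TPT1, 13 each after EIF4A1 and PABPC1, 9 after EIF4B, 8 each after EEF1B2, EEF1D and EEF1G, and none after EEF1A2 or EEF2. At the read length of 49 bases, the stretches that lie within a coding exon of the main transcript and occur exactly once in GRCh37 were 5.33% in EEF1A1, 25.1% in EIF4B, 27.2% in EEF1G, 35.1% in EEF1B2, 53.8% in EIF4A1, 76.7% in TPT1, 77.7% in PABPC1 and 95.1% in EEF1D. In EEF1A2 and EEF2 all of them, 100%, occurred once. Over all exons, untranslated ones included, EEF1A1 reached 57.3% and EEF1G 29.7%. A stretch of EEF1A1 occurred up to 10 times in the genome.

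EEF1G had 1966.7 to 2022.2 RPKM at 27.2% unique coding stretches, and EEF1D at most 16.3 RPKM summed at 95.1%. Whether reads with several positions lowered the level of EEF1A1 or EEF1G was not tested.

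**Figure D4:**
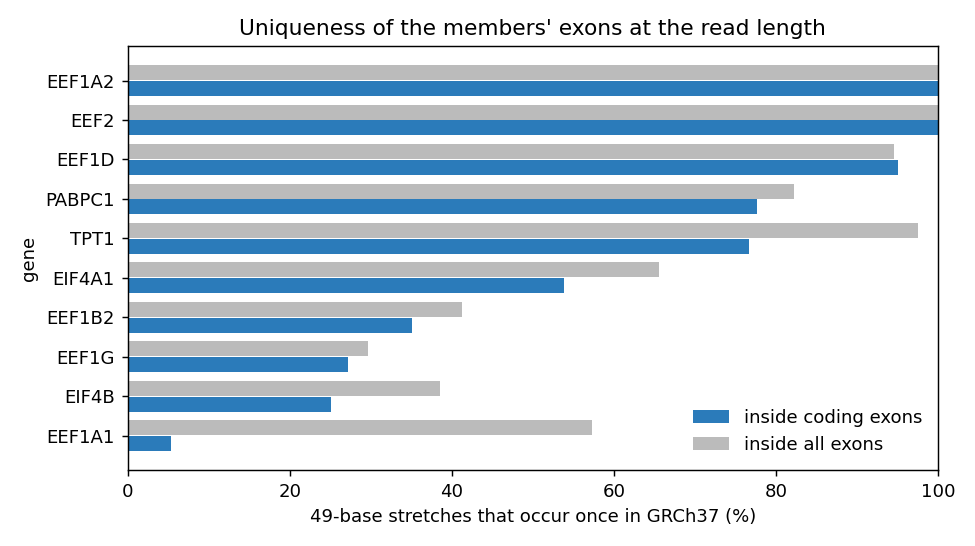
Share of 49-base stretches that occur exactly once in GRCh37 (%), inside the coding exons (blue) and inside all exons (grey) of the main transcript of each member gene. EEF1A1 has 5.33% in its coding exons and 57.3% over all exons, whereas EEF2 and EEF1A2 have 100% of both.

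Other genes of translation were taken from a list set by function and not picked for how they moved. Of its 85 genes, 79 had transcripts at a mean of at least 1 RPKM, 117 transcripts in all. Between BDE-209 and DMSO, 9 of the 117 were at least 1.2-fold higher and 6 lower, against the 9.55% and 9.74% of all transcripts given above. Between DMSO and the negative control 6 were higher and 10 lower, against 10.2% and 10.8% of all transcripts. Between BDE-209 and the negative control 4 were higher and 11 lower, against 10.5% and 10.8%. Their median log2 ratios were -0.0022, 0.013 and -0.016.

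The list held a group of other TOP mRNAs outside the ribosomal proteins, such as NPM1, NAP1L1, HNRNPA1 and RACK1, with 16 transcripts of 11 genes. VIM, named above as a marker, is also among them. None of the 16 passed 1.2-fold in any comparison. Of these, 15 had a mean of at least 100 RPKM, where few transcripts passed that fold. At that level, 0.503 to 0.629% of all transcripts were higher and 0.126 to 1.64% lower by as much. The medians of the 16 were -0.027 for BDE-209 against DMSO, 0.012 for DMSO against the negative control and -0.025 for BDE-209 against the negative control. Initiation factors, with 49 transcripts, had medians of -0.0017, 0.030 and 0.0051, and the 38 at a mean of at least 10 RPKM had 0.0021, 0.029 and 0.0059. The 13 transcripts of other cytosolic elongation genes had medians of -0.012, -0.030 and -0.011, and the 8 at a mean of at least 10 RPKM had -0.0086, -0.036 and 0.0085. The 17 transcripts of TOP regulators, among them LARP1, MTOR and RPTOR, had medians of 0.016, -0.0031 and -0.022. At a mean of at least 10 RPKM, the 13 that remained had -0.021, 0.022 and -0.022. The 8 transcripts of the mitochondrial elongation factors had medians of 0.035, 0.11 and 0.027, and the 4 at a mean of at least 10 RPKM had 0.035, -0.064 and -0.029. The 8 transcripts of poly(A)-binding proteins had 0.028, -0.0094 and 0.039, and the 6 of termination factors -0.024, -0.081 and -0.16. At a mean of at least 10 RPKM, the 4 poly(A)-binding transcripts had -0.0075, 0.049 and 0.050 and the 3 termination transcripts 0.00020, -0.031 and -0.029.

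Among the genes of that list at a mean of at least 10 RPKM, EIF6, which keeps the large ribosomal subunit from joining, had the lowest ratios of BDE-209 to DMSO. Its NM_181468 stood at 14.1, 17.3 and 10.5 RPKM in the negative control, DMSO and BDE-209, a log2 ratio of -0.69 (95% Clopper-Pearson interval -1.19 to -0.25), and NM_002212 at 17.1, 20.1 and 13.1 RPKM with -0.60 (-1.08 to -0.17). Both are transcripts of 1 gene and may share sequence, so they are not independent values. NM_181468 and NM_002212 also had the lowest ratios of BDE-209 to the negative control, -0.40 and -0.37, with intervals that reached 0.

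EEF2K, the kinase that inhibits eEF2, stood at 11.4, 14.5 and 12.2 RPKM in the same order, with a log2 ratio of 0.34 for DMSO against the negative control (95% Clopper-Pearson interval 0.16 to 0.54) and of -0.24 for BDE-209 against DMSO (-0.44 to -0.061). Like EEF2, it was highest with DMSO and lowest in the negative control. Subunits with the opposite order were EIF3J, at 64.2, 53.4 and 61.4 RPKM, and EIF2B3, whose NM_020365 had 31.7, 25.1 and 29.1 RPKM and NM_001166588 had 35.2, 28.3 and 32.4. Their ratios of DMSO to the negative control were -0.27 for EIF3J (-0.42 to -0.12) and -0.33 and -0.31 for EIF2B3.

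Above 0 in the comparison of BDE-209 with the negative control stood EEF1E1, a scaffold protein of the aminoacyl-tRNA synthetase complex (25.5, 25.97 and 29.9 RPKM, log2 ratio 0.23), RPS6KB2, an S6 kinase downstream of mTORC1 (24.4, 27.2 and 28.8 RPKM, 0.23), and RPTOR, a subunit of mTORC1 (NM_001163034, 13.2, 15.04 and 15.5 RPKM, 0.22). The interval of RPTOR was 0.034 to 0.42, and those of EEF1E1 and RPS6KB2 reached 0. TIAL1, an RNA-binding protein reported to bind TOP mRNAs, was below 0, with 41.3, 40.0 and 35.0 RPKM for NM_001033925 and a log2 ratio of -0.24 (95% Clopper-Pearson interval -0.39 to -0.088).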

How the data were processed

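PolyA-enriched RNA was sequenced by the authors as single-end reads of 49 bases. Alignment was by SOAPaligner against hg19 with no more than 2 mismatches, and reads with several positions were discarded. The deposited values are RPKM of RefSeq transcripts, in a separate list for each sample. Transcripts without a value were set to 0. Read totals were recovered by searching for the total at which the 2500 lowest RPKM values of a sample correspond to transcript lengths in whole bases. A transcript's reads were then the least whole numbers giving its RPKM in the 3 samples, at lengths from a set minimum up. For the members and the coding transcripts of the background at a mean of at least 100 RPKM, this minimum was the coding length in GENCODE 44 (lifted to GRCh37). For other transcripts of the member genes and for the named translation genes it was 49 bases.

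Log2 ratios had 0.5 RPKM added, and the background held transcripts with a mean of at least 1 RPKM. Intervals are 95% exact Poisson intervals for levels and Clopper-Pearson intervals for ratios, and PCR duplicates are not removed by them. Samples were grouped by their treatment label, with that of the negative control read by its title and the protocol. Since each condition had 1 sample, no test between conditions was run. NOISeq was not run. Symbols came from RefSeq (GRCh38.p14), which matched 96.0% of the 25443 transcripts. Named genes are the 10 members, the 3 highest and 3 lowest other translation genes per comparison at a mean of at least 10 RPKM with any at 1.2-fold, and the 5 transcripts most like EEF1A1, of which 1 is not reported here. The members and lists were chosen with earlier results of these data known. Alternatives covered scaling, pseudocount, filters, summed transcripts and the window for the TOP sequence. Recovery and folds were tested on simulated data. Calculations used numba 0.67.0, pandas 2.3.3, scipy 1.17.1 and numpy 2.4.6 under Python 3.11.15, and plots used matplotlib 3.10.9.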

Additional observations from a re-analysis of the deposited data

How the results depend on the processing

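With 1 sample per condition, spread between cultures cannot be estimated, and depth limits EEF1A2, EEF1B2 and EEF1D most. No paired analysis was possible because each condition had 1 sample. For BDE-209 against DMSO, DMSO against control and BDE-209 against control in turn, the members' median ratio was -0.043, 0.037 and 0.0051 with the size factor and -0.026, 0.053 and 0.038 with the sum of RPKM. Each of the 27 member ratios moved by less than its own counting interval under these scalings, both other pseudocounts and transcripts summed per gene. Whether the interval reached 0 still depended on the scaling for EEF1A1 and EEF1G. Signs near 0 changed for EIF4A1, EEF1A1 and TPT1 with the scaling and for EEF1B2, BDE-209 against DMSO, with transcripts summed. EEF1B2, DMSO against control, came past 1.2-fold with transcripts summed (log2 ratio 0.275). EEF1A2, BDE-209 against control, did so with the size factor (-0.265).

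The share of transcripts past a fold depended on the filter and pseudocount. In the same order, a mean of at least 100 RPKM gave 0.503, 0.503 and 0.629% higher and 0.126, 1.13 and 1.64% lower by 1.2-fold, and 0.0, 0.377 and 0.377% past 2-fold. Without a filter 1.74, 1.57 and 1.5% passed 2-fold, and 14.4, 14.3 and 14.6% were 1.2-fold higher and 14.0, 15.1 and 15.2% lower. With 0.1 RPKM added, 1.84, 1.83 and 1.74% passed 2-fold. At a mean of at least 10 RPKM, 0, 2 and 0 of the 86 other translation transcripts were 1.2-fold higher and 2, 3 and 2 lower. The share of all transcripts at that mean was not computed. These counts therefore cannot be set against the shares at a mean of at least 1 RPKM, since the share falls as the level rises. Summed over transcripts, EEF1G stood 47.6, 40.4 and 41.0 times above EEF1B2 in the negative control, DMSO and BDE-209. The TOP-like run was found in 21.1% of promoters within 5 bases of the start, 51.0% within 20 bases and, chosen after seeing the data, 4.07% exactly at the start.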
